A study of Sus scrofa with 36 samples.

Results

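The genes described here are the mitochondrial ribosomal protein genes of the pig heart, taken as all genes of the count table whose pig symbol starts with MRPL or MRPS. They number 64 of the 25880 genes in the table, of which 14857 carry a symbol. By symbol 40 belong to the large subunit (MRPL) and 24 to the small subunit (MRPS). Of the 64, 63 had a count in every library and passed the filter on low counts, the lowest single count being 18 (MRPS30). MRPS2, which the table places on an unplaced scaffold, was listed at 0 in all 36 libraries. A further 13 pig RefSeq symbols of the family had no gene by that symbol in the table and were not analysed here, among them MRPS36 and MRPL41. Proteins of this ribosome that have other symbols are given separately at the end. The kit keeps strand, but the strand setting of the counting is not given in the sources used here. Exons of 21 members overlap a gene on the opposite strand and exons of 6 overlap one on the same strand, so their counts are uncertain. The members with an opposite-strand overlap are MRPL13, MRPL2, MRPL24, MRPL35, MRPL37, MRPL39, MRPL40, MRPL43, MRPL47, MRPL49, MRPL51, MRPL54, MRPL57, MRPL58, MRPS18A, MRPS18C, MRPS22, MRPS33, MRPS34, MRPS6 and MRPS7, and those with a same-strand overlap are MRPL2, MRPL28, MRPL38, MRPL55, MRPS34 and MRPS6.

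Mitochondria have a ribosome of their own, built from ribosomal RNAs made inside the organelle and from proteins that are encoded in the nucleus, made in the cytosol and imported. It translates the few proteins of the mitochondrial genome, all of them parts of the respiratory chain and the ATP synthase. The heart depends on that chain for most of its energy. Some proteins of this ribosome, such as MRPL3, MRPL12 and MRPS12, have bacterial counterparts, and others, such as MRPL39, MRPS35 and MRPS22, occur in mitochondria and not in bacteria.

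The study used Yorkshire-landrace pigs in which branches of the left anterior descending and circumflex coronary arteries were tied permanently, or which had sham surgery. Surgery was on day 2 of life (Young) or day 14 (Old), and the hearts were collected 1 day (Early) or 1 week (Late) afterwards. The pigs were then 3 days old in the Young Early groups, 9 in Young Late, 15 in Old Early and 21 in Old Late. Each infarcted pig gave an infarct zone (IZ) and a border zone (BZ) library and each sham pig a library of the anterior left ventricular wall, which makes 12 groups of 3 libraries from 24 pigs. All animals received the same analgesic and antibiotic drugs after surgery, the labels name no genetic change, and the tissue pieces hold all cell types of the wall. Within a group each library is from another pig, so p-values of comparisons between different pigs measure the spread between pigs. The fit over all 36 libraries takes the infarct and border zone of a pig as independent, though limma-voom gave a correlation within a pig of 0.378. Tests between the zones of the same pigs measure the spread of differences within pigs.

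Library totals ran from 8113200 to 39789874 counts with a median of 22553145, and the 63 members took between 0.228% and 0.590% of a library. Mitochondrially encoded genes took from 9.75% to 44.1%. Young Early BZ replicate 2 stood apart, with the largest total and 10.1% mitochondrially encoded counts against 26.3% and 29.9% in the other libraries of its group, and each result that it moves is also given without it. Of 8 cardiomyocyte markers 5 were in the table, and their summed level was 20410 to 27230 CPM (read counts scaled to a fixed library total) in Young Early IZ and 60820 to 69450 in its sham group. The same sum was 20530 to 31540 in Old Early IZ and 47180 to 48260 in its sham group, 30910 to 41610 against 53930 to 65080 in Young Late, and 13910 to 19270 against 54170 to 62770 in Old Late. The 6 fibroblast markers, all in the table, summed to 13060 to 16760 CPM in Old Late IZ and 1056 to 1299 in Old Late Sham, and to 3413 to 5796 in Young Late IZ and 552.1 to 1018 in Young Late Sham. The 7 macrophage markers summed to 425.1 to 558.7 CPM in Old Late IZ and 51.9 to 80.8 in its sham group. Of 5 neutrophil markers 3 were in the table, at 15.7 to 166.5 CPM in Old Early IZ and 0.208 to 0.851 in its sham group, with MPO at 0 in all 4 sham groups, Young Early BZ and Old Early IZ. In bulk tissue fewer cells of a type and less RNA per cell cannot be told apart, and the part of cell make-up in the results below was not tested.

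Per length of their exons the members were well expressed, with a median over genes of 20.7 CPM per kilobase against 3.23 for all genes tested. Levels per kilobase ran from 3.40 for MRPS30 to 70.7 for MRPL24. MRPL24, MRPL51 (61.4) and MRPL33 (58.5) had the highest mean CPM per kilobase over all libraries, and MRPL19 (4.88), MRPS14 (4.20) and MRPS30 the lowest. In the 12 sham libraries MRPL24 ran from 50.6 to 121 CPM per kilobase and MRPS30 from 0.793 to 4.22. Both were picked as ends of the order with these libraries included, so their distance is no separate result. The lowest MRPS30 value came from Young Late Sham replicate 2, the library with the smallest total. MRPL12, MRPS25 and MRPL2 had the widest ranges of group means, 2.77, 2.525 and 2.35 in log2 CPM, each from Young Early BZ at the top to Old Late IZ at the bottom. Without Young Early BZ the ranges were 1.95, 1.65 and 1.95, each narrower than that of MRPL46 (2.13).

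The level of the whole set was taken as the mean of log2 CPM over the 63 members, with TMM scaling, which sets libraries to a common level over most genes. In the sham libraries of replicates 1 to 3 this level was 5.81, 5.85 and 5.63 in Young Early, 5.23, 5.39 and 5.19 in Old Early, 5.51, 4.98 and 5.30 in Young Late, and 5.16, 5.10 and 5.12 in Old Late. The hearts of the youngest sham pigs, at 3 days of age, thus lay above all other sham hearts on this scale, while with totals of all counts the sham groups overlapped. In the infarct zone the level was 5.09, 5.48 and 5.12 in Young Early, 5.24, 5.07 and 4.94 in Old Early, 5.31, 5.48 and 5.38 in Young Late, and 4.82, 4.40 and 4.36 in Old Late. The infarct zone lay below its sham group without overlap in Young Early and in Old Late, and overlapped it in Old Early and Young Late. The border zone was at 5.42, 6.55 and 5.40 in Young Early, 5.51, 5.15 and 4.86 in Old Early, 5.60, 5.42 and 5.49 in Young Late, and 4.83, 5.20 and 4.91 in Old Late. In Old Late the same replicate number in the infarct and border zone does not mark the same pig. With TMM scaling Old Late IZ had the lowest group mean, 4.53 ± 0.256 (SD, n = 3), and was the lowest of the 12 groups for 55 of the 63 members.

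**Figure D1:**
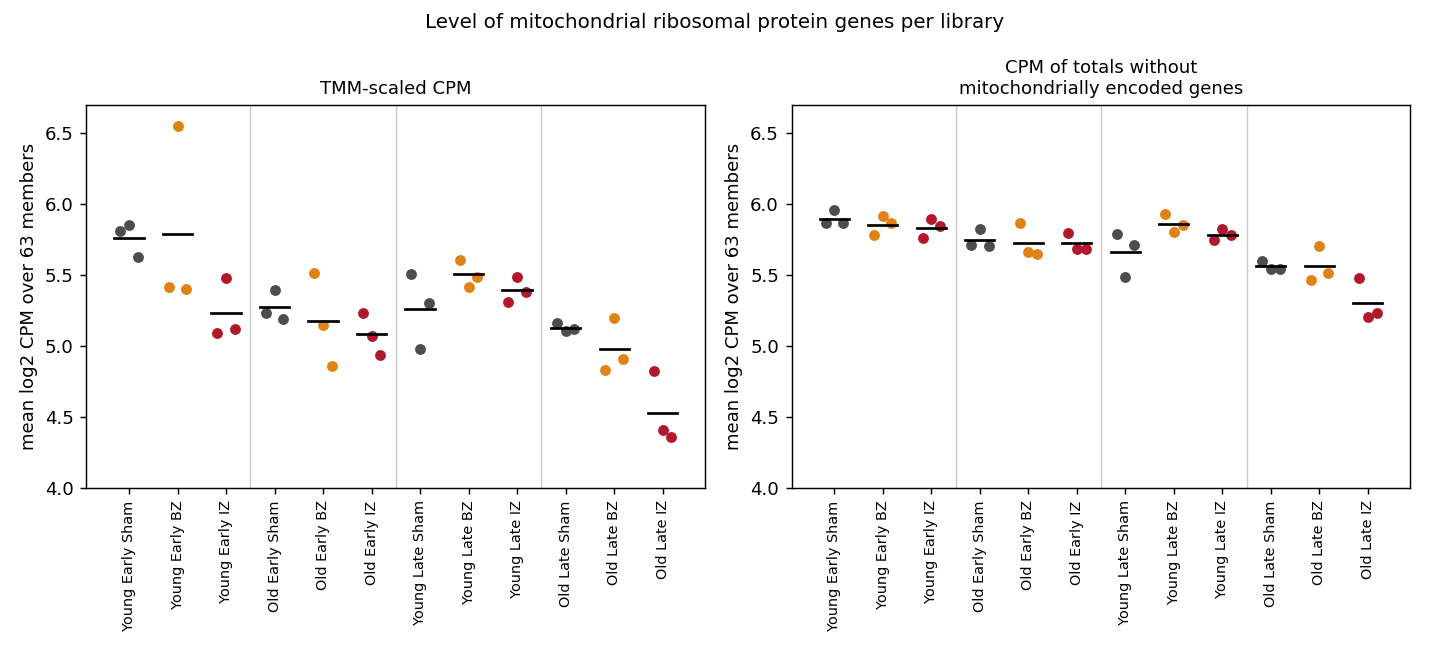
Each point is the mean log2 CPM of the 63 members in 1 library, with sham in grey, border zone in orange and infarct zone in red, and black lines mark group means. On the left (TMM-scaled) Old Late IZ has the lowest mean, 4.53, and Young Early BZ replicate 2 stands alone at 6.55. On the right, with totals that leave out mitochondrially encoded genes, the groups lie closer together and Old Late IZ is again lowest, at 5.30. With totals of all counts, not drawn, Old Late IZ (5.14) is not the lowest.

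These levels depend on the scale. With totals of all counts the mean of Old Late IZ, 5.14, lay above those of Young Late Sham (4.97) and Old Early Sham (5.10). The difference between Old Late IZ and its sham group was −0.60 with TMM, −0.26 with totals that leave out mitochondrially encoded genes and −0.03 with totals of all counts. In Young Early IZ the same difference was −0.53, −0.06 and 0.04, so its direction turned with library totals, and in Old Early IZ it was −0.19, −0.03 and 0.22. In the tests below, the median log2 fold change of all genes in the 4 infarct zone comparisons was between −0.05 and 0.08 with TMM and between 0.215 and 0.69 with library totals. Read relative to that median, the members' median was nearly the same under both scales, −0.55 and −0.58 in Young Early IZ, −0.24 and −0.23 in Old Early IZ, 0.09 and 0.10 in Young Late IZ, and −0.55 and −0.56 in Old Late IZ. A change of scale shifts all genes of a library alike, so this agreement is nearly fixed in advance and gives no separate support. All changes below are TMM-scaled and so are changes relative to most genes. They are log2 fold changes ± SE of edgeR's quasi-likelihood fit with 3 libraries per group, and a gene is called at a Benjamini-Hochberg adjusted p under 0.05 over all genes tested.

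The infarct zone 1 week after an infarct on day 14 of life is described first. In Old Late IZ 29 of 63 members fell and 0 rose (46.0% lower), against 23.2% of all 14537 genes tested called lower and 24.3% called higher. By subunit, 17 of 40 large subunit genes fell, with a median of −0.57 over those tested, and 12 of 23 small subunit genes, with a median of −0.68. Over all 63 members the median was −0.59, against −0.05 for all genes, and values ran from −1.48 to 0.56. With library totals 8 members were called lower and 7 higher, against 6.89% and 39.6% of genes. Without Young Early BZ replicate 2 in the fit 37 were called, 35 lower and 2 higher, against 27.6% and 26.9% of genes. In 39 of 63 members all 3 infarct zone libraries lay below all 3 sham libraries, and in 0 above, against 32.2% and 29.3% of all genes. The RNA integrity number (RIN) was 7.1 to 7.6 in Old Late IZ and 7.8 to 8.4 in its sham group, and mitochondrially encoded genes took 9.75% to 11.04% of counts against 22.8% to 24.0%. The part of either in these counts was not tested.

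Of the large subunit genes MRPL39, a protein with no bacterial counterpart, had the largest fall in Old Late IZ. Its level was 66.2, 69.4 and 61.5 CPM in the sham libraries and 22.2, 25.1 and 23.4 CPM in the infarct zone. All 3 infarct zone values were less than the lowest sham value, and the 2 groups were each tight. The change of MRPL39 was −1.48 ± 0.23 (adjusted p = 8.01e-06). The gene lies on chromosome 13 of the table, at chr13:189114528-189198715 on the minus strand, and its exons overlap those of JAM2 on the other strand.

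MRPL3, a protein close to the peptidyl transferase centre in bacterial ribosomes, was at 49.1, 49.2 and 46.2 CPM in Old Late Sham and at 17.2, 26.1 and 19.3 CPM in Old Late IZ. The groups did not overlap and the change of MRPL3 was −1.21 ± 0.21 (adjusted p = 2.81e-05). MRPL33, a small protein with a bacterial counterpart, was at 43.9, 42.9 and 38.9 CPM in sham and 13.1, 23.8 and 15.1 CPM in the infarct zone. All its infarct zone libraries were below sham, with replicate 2 the highest of the 3, and MRPL33 fell by 1.28 ± 0.28 (adjusted p = 0.000442). With library totals the values of MRPL3 and MRPL33 were −0.63 and −0.70 and neither was called (adjusted p = 0.0690 and 0.0587).

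Of the small subunit genes MRPS27, which codes for a pentatricopeptide repeat protein, was at 31.2, 28.2 and 33.4 CPM in Old Late Sham and 11.8, 12.2 and 9.91 CPM in Old Late IZ. Every infarct zone value was far under the sham range, and MRPS27 fell by 1.45 ± 0.38 (adjusted p = 0.00227). MRPS35, with no bacterial counterpart, was at 22.5, 19.4 and 19.0 CPM in sham and 7.88, 9.50 and 7.18 CPM in the infarct zone. These groups were also apart, and MRPS35 fell by 1.31 ± 0.19 (adjusted p = 2.20e-06). MRPS6, with a bacterial counterpart, was at 89.4, 51.4 and 46.0 CPM in sham and 25.5, 26.0 and 25.5 CPM in the infarct zone. Sham replicate 1 was the high value here and the groups did not overlap. MRPS6 fell by 1.28 ± 0.30 (adjusted p = 0.000941), and its exons overlap other genes on both strands, so its counts are uncertain. With library totals MRPS27 was not called (−0.89, adjusted p = 0.108).

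Of the 29 falls in Old Late IZ, 18 held without each of the 6 libraries in turn. Leaving out Old Late IZ replicate 3 left 18 members called, and each other library between 24 and 31. Old Late IZ replicate 1 had a higher level of the set (4.82) than replicates 2 and 3 (4.40 and 4.36).

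**Figure D2:**
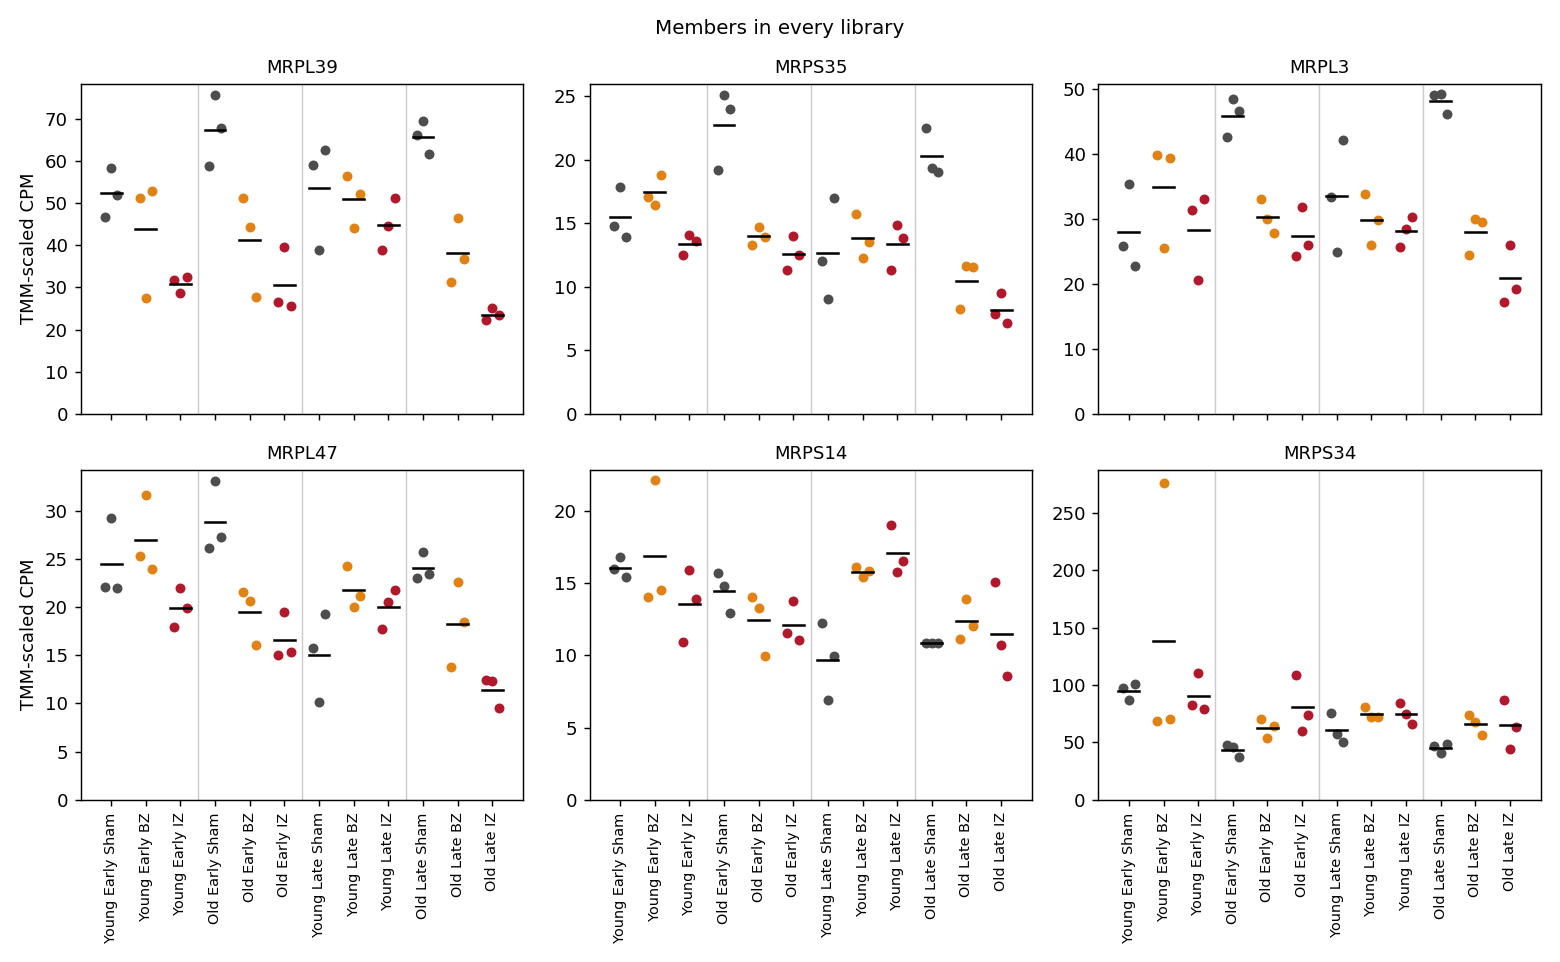
TMM-scaled CPM of 6 members in each of the 36 libraries, with points for libraries and black lines for group means. MRPL39, MRPS35, MRPL3 and MRPL47 are lowest in Old Late IZ (means of 23.6, 8.19, 20.9 and 11.4 CPM), MRPS14 is highest in Young Late IZ (17.1 CPM), and the highest point of MRPS34 is Young Early BZ replicate 2, at 276 CPM.

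After 1 day, the infarct zone of Old pigs had fewer calls. In Old Early IZ 10 of 63 members fell and 1 rose (15.9% lower), against 14.0% of all genes called lower and 18.9% called higher, so the share of members with a fall was near that of all genes. The median over members was −0.24 against 0.00 for all genes. Of the 63 members 26 were below sham in all libraries, a larger share than the 26.4% of all genes. MRPL39 was at 58.9, 75.7 and 67.8 CPM in Old Early Sham and at 26.5, 39.6 and 25.6 CPM in Old Early IZ. All infarct zone values were below sham, and MRPL39 fell by 1.14 ± 0.23 (adjusted p = 0.000436). MRPS35 was at 19.1, 25.1 and 24.0 CPM in sham and 11.3, 14.0 and 12.5 CPM in the infarct zone, again with no overlap, a fall of 0.85 ± 0.19 (adjusted p = 0.000893).

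MRPL47, a large subunit protein with a bacterial counterpart at the exit of the peptide tunnel, was at 26.2, 33.1 and 27.3 CPM in Old Early Sham and 15.1, 19.5 and 15.3 CPM in the infarct zone. It fell by 0.80 ± 0.20 (adjusted p = 0.00320) with the groups apart, and its exons overlap ACTL6A on the other strand. MRPL33, MRPL3 and MRPL45, which holds the ribosome to the inner membrane in human mitochondria, also fell in Old Early IZ, with changes of −0.82 ± 0.28, −0.75 ± 0.21 and −0.735 ± 0.23. The calls of MRPL39, MRPS35, MRPL47 and MRPL3 held without each library.

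MRPS34, a small subunit protein with no bacterial counterpart, was the member that rose in Old Early IZ. It was at 48.1, 46.1 and 37.2 CPM in sham and 109, 60.3 and 74.0 CPM in the infarct zone. The groups did not overlap and replicate 1 was the highest. The rise of MRPS34 was 0.89 ± 0.34 (adjusted p = 0.0415), it was called in 1 of the 6 fits that leave out a library, and its exons overlap NME3 on the same strand and MAPK8IP3 on the other. The count of called members in Old Early IZ fell to 6 without Old Early IZ replicate 1 and to 5 without replicate 3, and was 21 (16 lower, 5 higher) without Young Early BZ replicate 2 in the shared fit, where 18.8% of genes were called lower and 22.4% higher. With library totals 14 members were called higher and 1 lower, against 31.0% and 3.57% of genes, the latter MRPL39 (−0.72, adjusted p = 0.0409), and MRPS34 was at 1.295.

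In pigs infarcted on day 2, falls also outnumbered rises in the infarct zone after 1 day. In Young Early IZ 14 of 63 members fell and 0 rose (22.2% lower), against 11.6% of all genes called lower and 14.8% called higher. Of these falls 10 were in the large subunit and 4 in the small subunit. The median over members was −0.47, against 0.08 for all genes, and 60 of 63 members had a negative value. In 36 of 63 members all infarct zone libraries lay below all sham libraries, against 20.7% of all genes.

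MRPS15, a protein that binds the ribosomal RNA of the small subunit in bacteria, was at 166, 175 and 162 CPM in Young Early Sham and at 58.0, 110 and 51.8 CPM in Young Early IZ. The infarct zone was below sham in all libraries, with replicate 2 the highest of the 3, and MRPS15 fell by 1.195 ± 0.37 (adjusted p = 0.0195). MRPL51, with no bacterial counterpart, was at 104, 128 and 91.7 CPM in sham and 44.2, 65.5 and 43.3 CPM in the infarct zone. The groups were apart, and MRPL51 fell by 1.08 ± 0.34 (adjusted p = 0.0195), while its exons overlap NCAPD2 on the other strand. MRPL34, with a bacterial counterpart, fell by 0.88 ± 0.21 (adjusted p = 0.00326) and kept its call without each library, as did 1 other of the 14. MRPL30, MRPL46 and MRPS6 also fell, with changes of −0.99 ± 0.29, −0.92 ± 0.27 and −0.87 ± 0.30.

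The members with the largest falls in the Old infarct zones did not all pass in Young Early IZ. MRPL39 was at 46.7, 58.3 and 52.0 CPM in Young Early Sham and 31.7, 28.6 and 32.4 CPM in the infarct zone and fell by 0.76 ± 0.23 (adjusted p = 0.0160). MRPS35 was at 14.8, 17.9 and 13.9 CPM in sham and 12.5, 14.1 and 13.6 CPM in the infarct zone, so that its groups overlapped. MRPL3 was at 25.9, 35.4 and 22.7 CPM in sham and 31.3, 20.6 and 33.0 CPM in the infarct zone, which also overlapped.

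The count in Young Early IZ rests on single libraries. It was 3 without Young Early IZ replicate 1, 4 without replicate 3 and 22 without replicate 2. Of the Young Early Sham libraries, leaving out replicate 1 gave 9 and leaving out replicate 2 gave 6. The shared fit without Young Early BZ replicate 2 gave 32, all lower, against 15.8% of genes called lower there. With library totals 2 members were called higher and 1 lower, against 41.0% and 3.07% of genes. The member called lower was MRPS15 (−0.695, adjusted p = 0.0292), and MRPL34 was not called (−0.285, adjusted p = 0.272).

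In pigs infarcted on day 2 and studied after 1 week, the family had few calls. In Young Late IZ 1 member rose and 1 fell of 63, against 17.3% of all genes called higher and 13.1% called lower. The median over members was 0.12 (0.03 for all genes) and 38 members had a positive value. MRPS14, a small subunit protein with a bacterial counterpart, was at 12.2, 6.93 and 9.95 CPM in Young Late Sham and 19.1, 15.8 and 16.6 CPM in Young Late IZ. The infarct zone was above sham in all libraries. MRPS14 rose by 0.81 ± 0.21 (adjusted p = 0.00498), and the call held without each library. MRPS18B, a small subunit paralog of bacterial S18, was at 74.4, 79.4 and 76.5 CPM in sham and 47.2, 52.1 and 49.8 CPM in the infarct zone. Both groups were tight and apart, and MRPS18B fell by 0.63 ± 0.23 (adjusted p = 0.0407), a call that was lost without each library in turn.

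The count in Young Late IZ was 7, all higher, without Young Late Sham replicate 1. It was 1, the rise of MRPS14, without any of the 3 infarct zone libraries or Young Late Sham replicate 2. The fit without Young Early BZ replicate 2 gave 9, with 7 higher and 2 lower, against 20.9% and 17.0% of genes. Young Late libraries came from preparation batches 1 and 2, and with the batch as a term the same count of 1 higher and 1 lower was found. With library totals 12 members were called higher, against 21.5% of genes, and 0 lower.

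**Figure D3:**
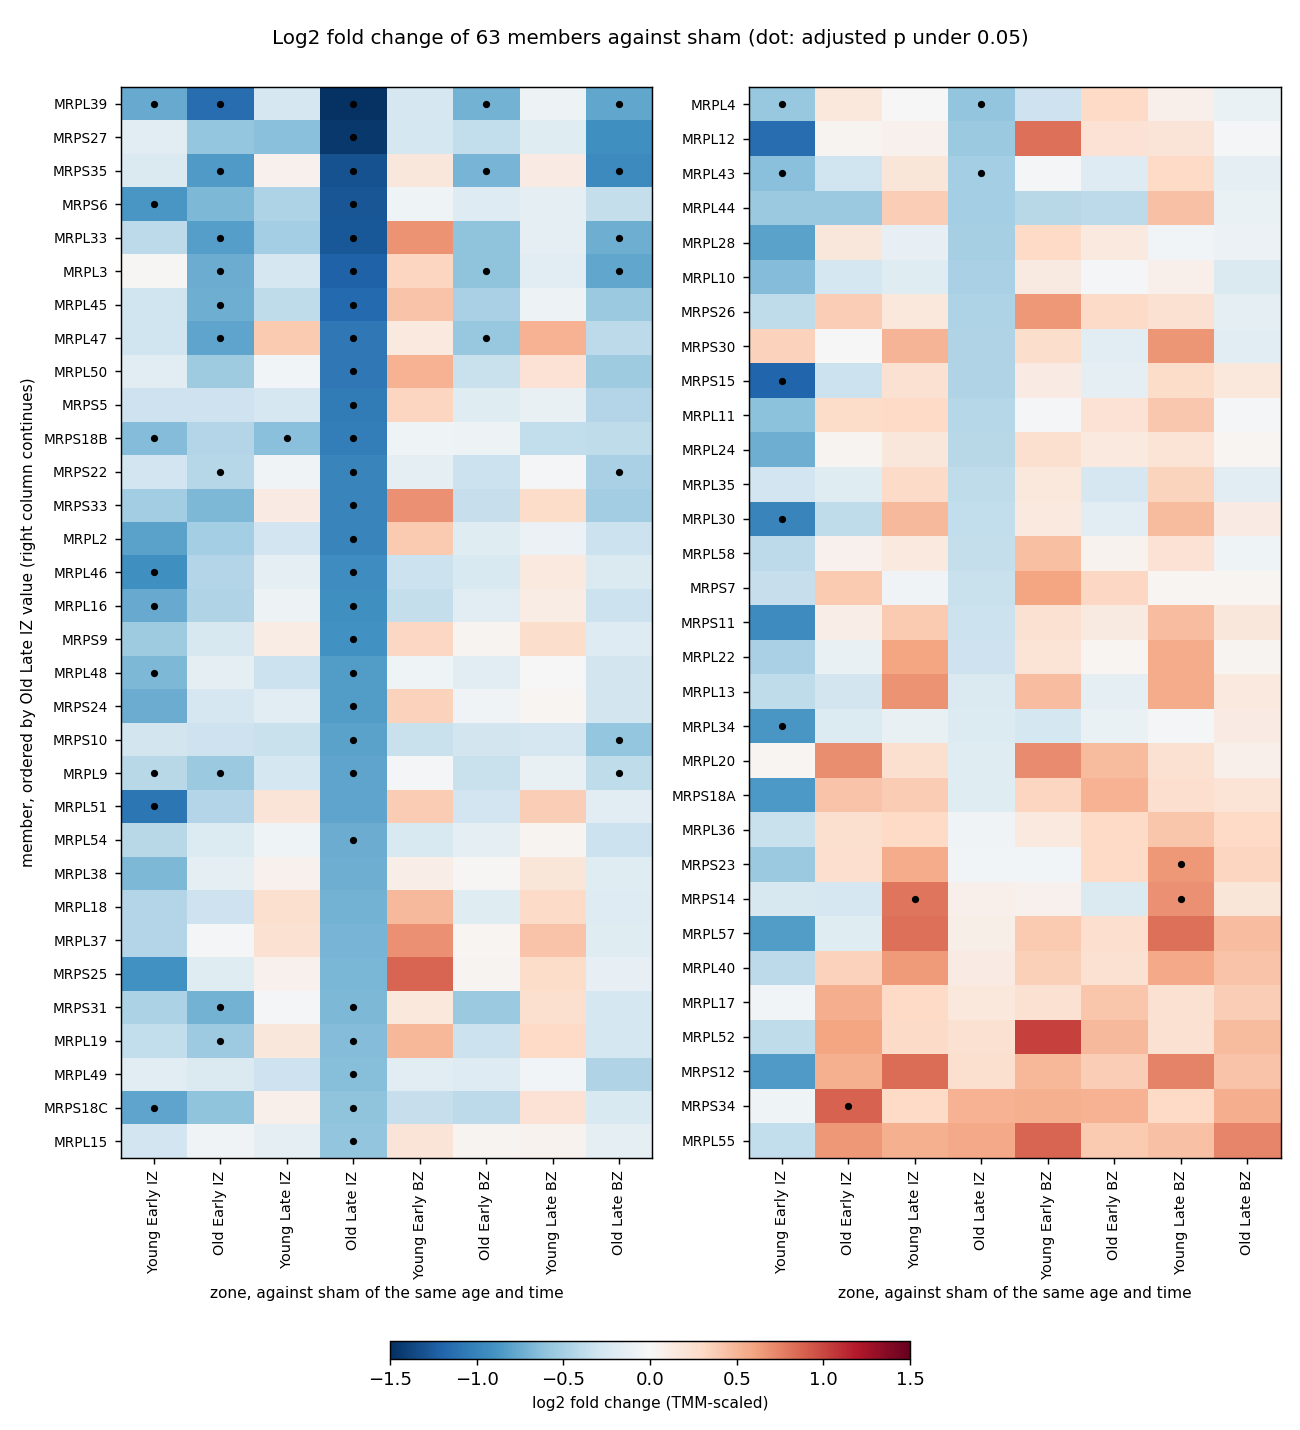
Log2 fold change of each of the 63 members against sham of the same age and time in 4 infarct zones and 4 border zones, ordered by the value in Old Late IZ, with blue for lower and red for higher (TMM-scaled). Dots mark the 29 falls in Old Late IZ, 14 in Young Early IZ, 10 falls and 1 rise in Old Early IZ and the few calls elsewhere. With library totals the median of members turns positive in Young Early IZ, Old Early IZ, Old Early BZ and Old Late BZ.

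The border zone had fewer called members than the infarct zone at each age and time, apart from Young Late, which had 2 in each. In Old Late BZ 7 members fell and 0 rose (11.1% lower), against 18.7% of all genes called lower. MRPS35 was at 8.23, 11.6 and 11.5 CPM in Old Late BZ, below all Old Late Sham values, and fell by 0.96 ± 0.19 (adjusted p = 0.000266). MRPL3 was at 24.4, 30.0 and 29.5 CPM, also below all sham values, and fell by 0.79 ± 0.21 (adjusted p = 0.00420). MRPL39, MRPL33, MRPS10 and MRPS22 also fell, with changes of −0.78 ± 0.23, −0.73 ± 0.28, −0.58 ± 0.20 and −0.49 ± 0.15. The calls of MRPS35 and MRPL3 held without each library. The count was 2 without Old Late BZ replicate 1, and leaving out replicate 1 or replicate 3 of Old Late Sham gave 4. The fit without Young Early BZ replicate 2 gave 14, with 12 lower and 2 higher, against 23.5% and 22.8% of genes, and with library totals 5 were called higher and 1 lower, against 26.5% and 5.44%. In Old Late BZ the 5 cardiomyocyte markers summed to 24690 to 35740 CPM, the 6 fibroblast markers to 5741 to 12160 and the 4 smooth muscle markers to 1180 to 2093, against 54170 to 62770, 1056 to 1299 and 118.0 to 131.8 in its sham group. RIN was 6.8 to 7.8 there, and the part of cell make-up or RIN was not tested.

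In Old Early BZ 4 members fell and 0 rose (6.35% lower), against 7.73% of all genes called lower. MRPL39 was at 51.3, 44.3 and 27.8 CPM in this border zone, against the sham values above, and fell by 0.71 ± 0.23 (adjusted p = 0.0269). MRPS35, at 13.3, 14.7 and 13.9 CPM, fell by 0.70 ± 0.19 (adjusted p = 0.00781), which held without each library. MRPL3 and MRPL47 also fell, with changes of −0.60 ± 0.21 and −0.57 ± 0.20. For all 4 the border zone lay below sham with no overlap. The count was 2 without Old Early BZ replicate 2 and 1 without Old Early BZ replicate 3. Of the Old Early Sham libraries, leaving out replicate 1 gave 2, and replicate 2 or 3 gave 1. With library totals 8 members were called higher, against 25.0% of genes, and 0 lower. The cardiomyocyte markers summed to 23420 to 39090 CPM in Old Early BZ and 47180 to 48260 in its sham group, and the fibroblast markers to 2927 to 3144 and 845.9 to 1365.

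In Young Late BZ 2 members rose and 0 fell (3.18% called), against 8.66% of all genes called higher. MRPS14 was at 16.1, 15.4 and 15.9 CPM, above all sham values, and rose by 0.69 ± 0.21 (adjusted p = 0.0291). MRPS23, a small subunit protein with no bacterial counterpart, was at 50.4, 41.7 and 45.8 CPM, against 34.6, 26.5 and 26.3 CPM in sham, and rose by 0.65 ± 0.23 (adjusted p = 0.0492). The groups were apart for both genes. No call was left without any 1 of the 3 border zone libraries or without Young Late Sham replicate 2, 1 was left without Young Late Sham replicate 3 and with batch as a term, and 4 were made without Young Late Sham replicate 1. The fit without Young Early BZ replicate 2 also gave 4, against 12.1% of genes called higher there. With library totals 9 members were called higher, against 10.9% of genes. The cardiomyocyte markers summed to 44290 to 49410 CPM in Young Late BZ and 53930 to 65080 in its sham group.

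In Young Early BZ edgeR called 0 members of 63, against 0.894% of all genes, and DESeq2 also called 0. At an unadjusted p of edgeR under 0.05 were 6 of 63 members and 2603 of all 14537 genes. Replicate 2 decides the values. MRPL12, the stalk protein that binds translation factors, was at 349, 328 and 271 CPM in Young Early Sham and at 196, 1322 and 161 CPM in the border zone. MRPS27 was at 24.9, 34.3 and 20.6 CPM in sham and at 30.1, 3.83 and 32.8 CPM in the border zone. Replicate 2 was thus the highest library for MRPL12 and the lowest for MRPS27. The median over members was 0.23 with all libraries and −0.42 without Young Early BZ replicate 2, while 4 members were called higher without replicate 1. The 3 members with the smallest p were MRPL33 (0.68 ± 0.28), MRPL19 (0.50 ± 0.20) and MRPS33 (0.68 ± 0.29).

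Whether the response depended on the age at injury was tested as the difference between the Old and the Young change. After 1 week in the infarct zone 4 members had a lower response in Old than in Young pigs and 0 a higher one (6.35% lower), against 2.25% of all genes called lower and 1.28% higher. The median difference over members was −0.69, against −0.04 for all genes, and 61 of 63 members had a negative difference. MRPL47 was at 15.8, 10.1 and 19.3 CPM in Young Late Sham and 17.7, 20.6 and 21.8 CPM in Young Late IZ, but at 23.0, 25.8 and 23.5 CPM in Old Late Sham and 12.4, 12.3 and 9.48 CPM in Old Late IZ. The Young groups overlapped and the Old groups did not. The difference in response of MRPL47 was −1.48 ± 0.29 (adjusted p = 0.00873).

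MRPS35 was at 12.0, 9.06 and 16.9 CPM in Young Late Sham and 11.3, 14.9 and 13.8 CPM in Young Late IZ. Here too the Young groups overlapped, the Old groups did not, and the difference for MRPS35 was −1.37 ± 0.27 (adjusted p = 0.00873). MRPS22, a small subunit protein in which human variants cause mitochondrial disease, was at 32.1, 31.9 and 32.0 CPM in Young Late Sham and 28.2, 35.0 and 29.7 CPM in Young Late IZ. It was at 31.2, 33.0 and 34.5 CPM in Old Late Sham and 17.4, 18.0 and 14.2 CPM in Old Late IZ. MRPS22 was thus nearly level in the Young and lower in every Old infarct zone library, a difference of −0.95 ± 0.21 (adjusted p = 0.0178), and its exons overlap COPB2 on the other strand. For MRPL39 the difference was −1.22 ± 0.33 (adjusted p = 0.0355).

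None of these 4 differences in the late infarct zone held without each of the 12 libraries. The count was 0 without Old Late IZ replicate 3 and 2 without Old Late IZ replicate 1, Young Late IZ replicates 2 or 3 or Young Late Sham replicate 2. The fit without Young Early BZ replicate 2 gave 16, all lower, against 5.74% of genes called lower there. With library totals it was 1, MRPL47 (−1.115, adjusted p = 0.0390), against 0.199% of genes called lower. All Old Late libraries are of preparation batch 3, while Young Late IZ and Young Late Sham each hold batches 1, 2 and 2. A batch shift shared by infarct zone and sham thus cancels in this difference. With the batch as a term 4 members were called, all lower. A response to infarction that itself differs between batches cannot be told apart from age here.

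**Figure D4:**
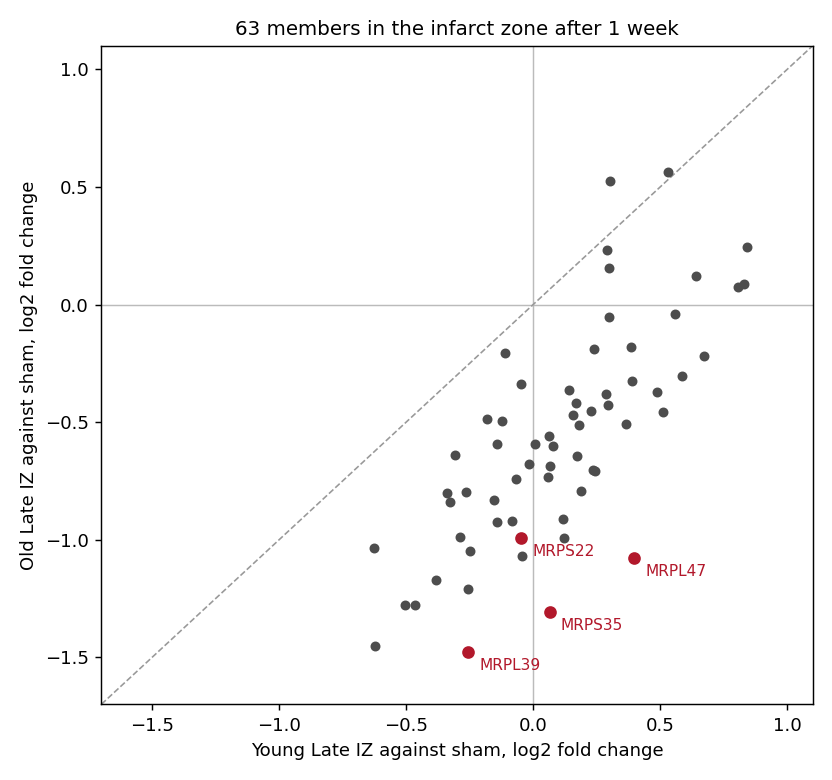
Each point is 1 of the 63 members, with its log2 fold change against sham in Young Late IZ on the x axis and in Old Late IZ on the y axis (TMM-scaled), and a dashed line of equal change. Of the members 61 lie below that line, and MRPL47, MRPS35, MRPL39 and MRPS22 (red) are those whose difference passed the test. With library totals only MRPL47 of these 4 passed, and all 4 differences stayed negative.

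In the early infarct zone edgeR called 0 members for a difference between ages, against 0.0344% of all genes, and DESeq2 called 0. At an unadjusted p of edgeR under 0.05 were 8 of 63 members and 3717 of all 14537 genes. The median difference was 0.37 and the 3 smallest p were those of MRPL4 (0.74 ± 0.27), MRPL3 (−0.76 ± 0.29) and MRPS12 (1.38 ± 0.54). Once Young Early BZ replicate 2 was out of the fit, 9 members had a higher response in Old pigs and 0 a lower one, among them MRPS12 (1.38, adjusted p = 0.0241) and MRPL4 (0.73, adjusted p = 0.0387), against 7.27% of all genes called higher there.

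In the border zone after 1 week 1 member had a lower response in Old pigs, against 0.296% of all genes called lower. MRPS35 was at 15.7, 12.2 and 13.5 CPM in Young Late BZ, within its sham range, and below sham in Old Late BZ, a difference of −1.075 ± 0.26 (adjusted p = 0.0471). The call held without Young Late BZ replicate 2, Old Late BZ replicate 3 or Young Late Sham replicate 3, where 2 members were called, was lost without each of the other libraries, and it was lost with library totals. Without Young Early BZ replicate 2 in the fit 2 members were called lower, against 1.59% of genes. In the early border zone edgeR called 0 members for a difference, against 0.199% of all genes. DESeq2 called 3 members lower, and the share of all genes it called is not given here. At an unadjusted p of edgeR under 0.05 were 10 of 63 members and 2573 of all 14537 genes. The smallest p were those of MRPS35 (−0.87 ± 0.26), MRPL33 (−1.28 ± 0.39) and MRPL3 (−0.92 ± 0.29), and without Young Early BZ replicate 2 there were 7 calls, 5 higher and 2 lower, against 7.9% and 6.57% of genes.

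Infarct and border zone of the same heart were compared with the pig as a block. In the 3 Old Late pigs the level of the set was lower in the infarct zone in each, by −0.37, −0.51 and −0.47, and 58, 63 and 63 of the 63 members had a lower value there. The test called 1 member lower, against 1.08% of all 14386 genes tested. MRPL46, a large subunit protein with no bacterial counterpart, was at 17.0, 10.9 and 11.4 CPM in Old Late IZ and 19.5, 24.6 and 20.3 CPM in Old Late BZ. Values are in replicate order. Infarct zone replicates 1, 2 and 3 share a pig with border zone replicates 2, 3 and 1, in that order. All infarct zone values were below all border zone values, and the change of MRPL46 was −0.76 ± 0.15 (adjusted p = 0.0422). At an unadjusted p of edgeR under 0.05 were 35 of 63 members and 2817 of all 14386 genes. The call of MRPL46 was lost without each pig and without the block. It was also lost with the pig of Old Late BZ replicate 3 taken from the individual label, which conflicts with its title. DESeq2 called 13 members lower, and the share of all genes it called is not given here, so this count cannot be set against it. Without Young Early BZ replicate 2 in the fit 34 members were called lower and 0 higher, against 7.09% of genes called lower there.

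In the Young Early pigs the infarct zone was lower by −0.32, −1.07 and −0.28, the largest gap being that of Young Early BZ replicate 2. With totals that leave out mitochondrially encoded genes the mean gap was −0.02 here, against −0.56 with TMM, and −0.26 in the Old Late pigs, against −0.45 with TMM. The test called 22 members lower and 0 higher (34.9% lower), against 6.43% of all genes called lower. MRPL12 and MRPL51 had the largest falls, with changes of −1.32 ± 0.32 and −1.185 ± 0.22, followed by MRPS25, MRPS15, MRPL2 and MRPS12 with −1.15 ± 0.30, −1.04 ± 0.21, −1.004 ± 0.20 and −0.99 ± 0.27. Without the pig of Young Early BZ replicate 2, 1 member was left, and without the pig of replicate 1 there were 10. The call of MRPL51, at 44.2, 65.5 and 43.3 CPM in the infarct zone and 70.5, 275 and 76.3 CPM in the border zone, held without each pig. Without the block 1 member was called, and with library totals 4 were called lower and 1 higher, against 2.61% and 29.3% of genes.

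In the Old Early pigs the zones differed by −0.28, −0.08 and 0.08 and in the Young Late pigs by −0.295, 0.07 and −0.11. edgeR called 0 members in both comparisons, DESeq2 also called 0, and edgeR called 0.0% of all genes in each. At an unadjusted p of edgeR under 0.05 were 0 of 63 members in both. Of all 14386 genes 850 were under it in Old Early and 1396 in Young Late. The smallest p in Old Early were those of MRPL39 (−0.42 ± 0.22), MRPL16 (−0.29 ± 0.14) and MRPS18B (−0.31 ± 0.17), and in Young Late those of MRPL48 (−0.315 ± 0.17), MRPL46 (−0.285 ± 0.15) and MRPL45 (−0.305 ± 0.17). The direction differed between the pigs of each group.

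**Figure D5:**
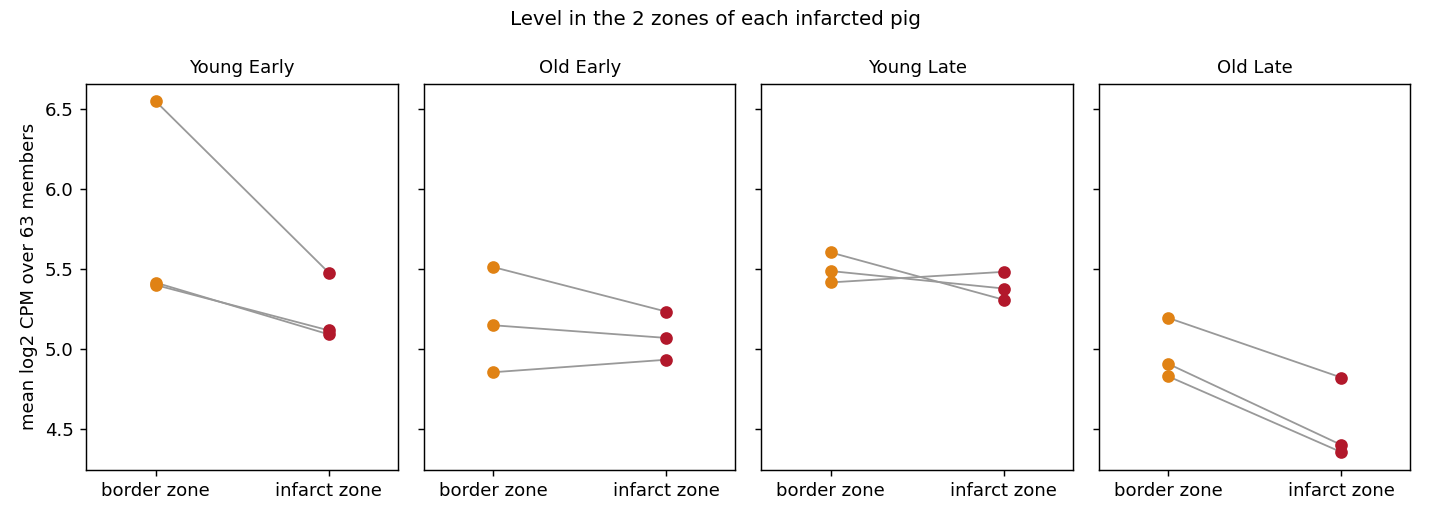
Mean log2 CPM over the 63 members (TMM-scaled) in the border zone and the infarct zone of each of the 12 infarcted pigs, with a line per pig. The 3 Old Late lines fall by 0.37 to 0.51, the 3 Young Early lines also fall, with the border zone of replicate 2 at 6.55, and in Old Early and Young Late 1 pig of each rises.

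Sham hearts of different ages were compared without an infarct. Between 3 and 15 days of age 20 members fell and 2 rose (31.7% lower), against 13.2% of all genes called lower and 17.0% called higher. The median over members was −0.61 (0.03 for all genes), and −0.34 with library totals, where 13 were called lower and 3 higher, against 5.01% and 21.3% of genes. In 41 of 63 members all older sham libraries were below all younger ones and in 4 above, against 26.9% and 28.9% of genes. MRPS12, a protein of the decoding centre, was at 53.0, 63.5 and 37.4 CPM in Young Early Sham and 17.4, 20.7 and 20.6 CPM in Old Early Sham. The groups were far apart, and MRPS12 fell by 1.39 ± 0.39 (adjusted p = 0.0105), which held without each library. MRPS34 was at 97.2, 87.0 and 101 CPM and then 48.1, 46.1 and 37.2 CPM, a fall of 1.12 ± 0.34 (adjusted p = 0.0159).

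MRPS18A, MRPS15, MRPL28 and MRPL38 (of which all but MRPS15 have exons that overlap another gene) also fell between these sham groups, with changes of −1.31 ± 0.43, −1.14 ± 0.37, −1.07 ± 0.37 and −1.06 ± 0.31. Against this direction MRPL3 rose from 25.9, 35.4 and 22.7 CPM to 42.7, 48.5 and 46.6 CPM, by 0.71 ± 0.21 (adjusted p = 0.0135). MRPS35 rose from 14.8, 17.9 and 13.9 CPM to 19.1, 25.1 and 24.0 CPM, by 0.55 ± 0.19 (adjusted p = 0.0275). For both genes the older sham libraries were all above the younger ones.

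These sham groups also differ in preparation batch, 1 for all Young Early Sham and 2 for all Old Early Sham, and in RNA integrity number, 6.4 to 6.9 and 7.1 to 7.6. With the batch as a term, which the mixed Young Late groups allow, 9 members were called lower and 0 higher. The share of all genes called in that fit is not given here, so this count cannot be set against it. The part of RNA integrity was not tested. Of the Young Early Sham libraries, leaving out replicate 1 gave 5 calls and replicate 3 gave 14. Of the Old Early Sham libraries, leaving out replicate 1 gave 10 and replicate 3 gave 3. The fit without Young Early BZ replicate 2 gave 38, with 36 lower and 2 higher, against 19.4% and 22.1% of genes.

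Between 3 and 9 days of age in sham hearts 4 members fell and 0 rose (6.35% lower), against 4.65% of all genes called lower. These hearts were collected 1 day and 1 week after sham surgery, so age and time after surgery cannot be told apart. Preparation batches also differed, 1, 1 and 1 in Young Early Sham and 1, 2 and 2 in Young Late Sham. MRPS23 was at 54.5, 56.7 and 50.6 CPM and then at 34.6, 26.5 and 26.3 CPM, with no overlap, a fall of 0.89 ± 0.23 (adjusted p = 0.0188). MRPL43, MRPS14 and MRPL47 also fell, with changes of −0.74 ± 0.21, −0.71 ± 0.21 and −0.69 ± 0.20. The count was 24, all lower, without Young Early BZ replicate 2 in the fit, where 10.5% of genes were called lower, 13 without Young Late Sham replicate 1 and between 0 and 2 without each other sham library.

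Between 9 and 21 days 2 members rose and 1 fell, against 6.69% of all genes called higher and 3.75% lower. MRPS35 rose by 0.67 ± 0.19 (adjusted p = 0.0243), MRPL47 rose by 0.67 ± 0.20 (adjusted p = 0.0352) and MRPL17 fell by 0.75 ± 0.24 (adjusted p = 0.0461). The fit without Young Early BZ replicate 2 gave 8 lower and 3 higher, against 8.4% and 12.4% of genes. Of the Old Late Sham libraries, leaving out replicate 1 or 2 gave 0 calls and replicate 3 gave 1. Of the Young Late Sham libraries, leaving out replicate 1 gave 0 and replicate 2 gave 1, a fall. With library totals 4 were called higher, against 14.1% of genes, and 0 lower, and the median over members turned from −0.17 to 0.19. Old Late Sham is the only sham group of preparation batch 3, so batch and age cannot be told apart here. RIN was 7.8 to 8.4 in Old Late Sham and 6.6 to 7.6 in Young Late Sham, and its part was not tested. Between 15 and 21 days edgeR called 0 members, against 0.0275% of all genes, and DESeq2 called 0. At an unadjusted p of edgeR under 0.05 were 1 of 63 members and 1322 of all 14537 genes. These 2 groups also differ in time after sham surgery (1 day and 1 week) and in preparation batch (2 and 3). The smallest p there were those of MRPS23 (−0.47 ± 0.23), MRPS14 (−0.41 ± 0.21) and MRPL34 (−0.37 ± 0.21).

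Some members have further roles. MRPL12 in human cells also binds the mitochondrial RNA polymerase. Its range of group means was the widest only with Young Early BZ included. Without that group it was 1.95, narrower than that of MRPL46 (2.13). MRPL10 and MRPL11 form the stalk base that carries MRPL12. In Old Late IZ the values were −0.56 for MRPL12, −0.49 for MRPL10 and −0.43 for MRPL11, and none of the 3 was called. MRPL58, which rescues stalled ribosomes by releasing the peptide, was at 27.3, 23.7 and 29.1 CPM in Old Late Sham and 26.0, 16.6 and 19.7 CPM in Old Late IZ, and the groups overlapped. MRPL18, which binds ribosomal RNA in the large subunit, was at −0.71 and was not called.

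Of the 3 paralogs of bacterial S18, 2 were called in Old Late IZ, and differences among them were not tested. MRPS18B fell by 1.04 ± 0.23 (adjusted p = 0.000609) and MRPS18C by 0.60 ± 0.24 (adjusted p = 0.0417) in Old Late IZ. MRPS18A, which sits in the large subunit of the human ribosome despite its name, was at 36.1, 31.0 and 31.2 CPM in sham and 42.9, 21.3 and 22.6 CPM in the infarct zone, where replicate 1 lay above sham and the other libraries below. MRPS30, also a large subunit protein in human mitochondria, was at 10.4, 9.53 and 9.39 CPM in sham and 7.53, 6.12 and 7.68 CPM in the infarct zone, below sham in every library, and was not called.

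The other parts of mitochondrial translation are given for the same infarct zones. Of 5 ribosomal proteins with other symbols that were tested, 2 fell in Old Late IZ and in both early infarct zones and 1 fell in Young Late IZ, and 0 rose in any. PTCD3, a small subunit protein, fell by 1.31 ± 0.15 in Old Late IZ (adjusted p = 1.12e-07), and DAP3, a small subunit GTP-binding protein, fell by 0.53 ± 0.13 (adjusted p = 0.00139). Of 15 translation factors 5 fell in Young Early IZ, 8 in Old Early IZ and, after 1 week, 2 in the Young and 10 in the Old infarct zone, and 0 rose in any. The elongation factor TSFM fell by 1.53 ± 0.20 and TACO1, needed for translation of COX1, by 1.69 ± 0.25 in Old Late IZ. In Young Early IZ the elongation factor TUFM fell by 0.90 ± 0.30 and the insertase OXA1L by 0.92 ± 0.20.

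In the same order of the 4 infarct zones, 5, 6, 5 and 12 of 21 ribosome assembly genes fell and 0, 1, 1 and 1 rose. Of 19 mitochondrial aminoacyl-tRNA synthetase genes 8, 6, 4 and 12 fell and 0 rose. These counts stand beside 11.6%, 14.0%, 13.1% and 23.2% of all genes called lower in the same 4 comparisons. Of the 13 mitochondrially encoded proteins that this ribosome makes, the RNA of 1, 3, 0 and 12 fell, with medians of −0.72, −1.01, −0.62 and −1.78. Of 34 nuclear oxidative phosphorylation genes 32, 23, 4 and 30 fell, with medians of −1.21, −0.94, −0.22 and −1.28. The medians of the 63 ribosomal protein genes in those 4 zones, −0.47, −0.24, 0.12 and −0.59, were nearer to 0, and that difference was not tested.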

How the data were processed

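RNA of 36 heart pieces was sequenced as polyA-selected, stranded, paired-end libraries. The deposited table holds whole-number counts per gene, made by the authors and not normalized. Per the submitters' processing notes the tools were bcl2fastq 2.19.0.316, Trimmomatic 0.36, STAR and featureCounts of Subread 1.5.1. The strand setting, genome build and annotation are not given in the sources used here, and coordinates are those of the table.

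From the counts, edgeR 4.0.16 (R 4.3.3, limma 3.58.1) was fitted with its quasi-likelihood model, robust estimation and TMM factors. One mean per group was fitted over all 36 libraries (14537 genes after filterByExpr, minimum count 10 and minimum total 15, with 24 residual degrees of freedom). The infarct and border zones were compared in the 24 libraries from infarcted animals, with the pig as a block (14386 genes, 8 residual degrees of freedom). The pairing comes from the pig numbers in the titles, and for Old Late BZ replicate 3 the title and the individual label differ. In each of 20 comparisons the Benjamini-Hochberg adjustment ran over every gene tested, with a threshold of 0.05. Log2 CPM used a prior count of 2. Library totals, 8113200 to 39789874 counts, set the precision of low genes. The fit was tested on simulated data. Libraries of a pig were drawn there as independent, so the correlation within a pig was not covered.

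Alternatives were DESeq2 1.42.0 and its size factors, no count filter, mitochondrially encoded genes left out, a batch term, limma-voom with the pig as a random block, no block, the individual label, and each replicate left out. Library totals in place of TMM and a fit without Young Early BZ replicate 2 were chosen after seeing the data.

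The members and gene lists were chosen with earlier results of these data known. Named members are, per comparison, the 6 called members that rose most, the 6 that fell most and any called against the majority. Where none was called, the 3 with the smallest p are named. The members with the highest and lowest levels per kilobase, the 3 with the widest range and a panel with special roles were added. Other members are named where a result turned on them.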

Additional observations from a re-analysis of the deposited data

Results flagged for a closer look

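In 5 results the change after infarction differed between Old and Young pigs by a test of the difference itself. In the late infarct zone the Old minus Young difference in log2 fold change was −1.477 for MRPL47, −1.374 for MRPS35, −1.224 for MRPL39 and −0.947 for MRPS22. In the late border zone it was −1.075 for MRPS35. All 5 passed edgeR's quasi-likelihood test after Benjamini-Hochberg adjustment, and none kept its call in all 12 fits that leave out a library. MRPL47 and MRPS35 in the infarct zone were called in 11 of those 12 fits, MRPS22 in 7, MRPL39 in 3 and MRPS35 in the border zone in 3.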

How the results depend on the processing

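Counts are of called members. Shares of all genes called are given above only for the main fit, library totals and the fits without Young Early BZ replicate 2. Counts under other settings have no such share beside them and cannot be read against all genes. With library totals in place of TMM the direction of the calls turned in Young Early IZ (3 called, 2 of them higher), Old Early IZ (15, 14 of them higher), Old Early BZ (8 higher) and Old Late BZ (6, 5 of them higher). On that scale counts became 12 in Young Late IZ, 15 in Old Late IZ, 9 in Young Late BZ, 1 and 0 for the Old minus Young difference in the late infarct and border zone, and 5 and 0 between the zones of Young Early and Old Late pigs. Of 60 named pairs of a member and a comparison 34 lost their call on that scale and none changed sign. Without Young Early BZ replicate 2 in the fit counts rose to 32, 21 and 9 in Young Early, Old Early and Young Late IZ, 4 and 14 in Young Late and Old Late BZ, 9, 16 and 2 for the age difference in the early infarct, late infarct and late border zone, 38 and 24 for sham hearts at 15 and 9 days against 3 days, and 34 between the zones of Old Late pigs. In Old Late Sham against Young Late Sham it turned to 11 (8 lower, 3 higher).

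The DESeq2 test gave 22 in Young Early IZ, 3 for the age difference in the early border zone, 9 for sham hearts at 9 against 3 days, and 37 and 13 between the zones of Young Early and Old Late pigs. DESeq2's size factors gave 1 in Young Late BZ. Without the count filter there were 1 in Young Late IZ, 2 in Old Early BZ, 1 in Young Late BZ, 0 for the age difference in the late border zone and 11 between the Young Early zones. Without mitochondrially encoded genes there were 4 in Old Late BZ, 0 for the late border zone difference and 2 between the Old Late zones. With a batch term there were 1 in Young Late BZ and 9 for sham hearts at 15 against 3 days, and the term could not be fitted for comparisons of Old Late Sham with other shams.

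With the pig as a random replicate block (limma-voom) there were 0 in Young Late BZ, 0 for the late border zone difference and 2 for sham hearts at 9 against 3 days. With no replicate block there were 1 and 0 between the zones of Young Early and Old Late pigs, and with the pig taken from the individual label 0 in the latter. In the Old Early and Young Late zone comparisons 0 members were called with the block and 0 without it, so there was no call to lose.

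Leaving out 1 library or pig gave 3 to 22 in Young Early IZ, 5 to 12 in Old Early IZ, 1 to 7 in Young Late IZ, 18 to 31 in Old Late IZ, 0 to 4 in Young Early BZ, 1 to 4 in Old Early BZ, 0 to 4 in Young Late BZ and 2 to 7 in Old Late BZ. For the age difference it gave 0 to 5 in the late infarct zone, 0 to 7 in the early border zone and 0 to 2 in the late border zone. For sham hearts it gave 3 to 15 at 15 against 3 days, 0 to 3 at 21 against 9 days (1, a fall, without Young Late Sham replicate 2) and 0 to 13 at 9 against 3 days. Between zones it gave 1 to 22 in Young Early and 0 in Old Late pigs. Of the leave-one-out fits of named pairs 222 kept the call and 147 lost it. With 3 pigs per group and these spreads, a missing call does not show that a gene did not change.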

Other observations

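Genes of this family often start near the start of a gene on the opposite strand. Of the 63 members tested, 22 (34.9%) had a gene on the opposite strand that starts within 1000 bases in the table's annotation, against 13.0% of all genes tested. Starts on either side count, so pairs that overlap at their starts, such as MRPL35 and IMMT, are included with pairs that point away from each other. The large subunit gene MRPL46 and the small subunit gene MRPS11 form such a pair, 361 bases apart. In Old Late IZ MRPL46 was at −0.93 and called, and MRPS11 was at −0.33 and not called (edgeR's quasi-likelihood test). MRPL47 starts 77 bases from NDUFB5, which codes for a subunit of respiratory complex I, and the values in Old Late IZ were −1.08 and −0.91, both called.

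Of the 8 members with such a partner that fell in Old Late IZ, 4 had a partner that also fell and 0 a partner that rose. Of all 21 tested partners, 7 were called lower and 2 higher, against 23.2% and 24.3% of all genes, so partners of members are not shown to stand apart. MRPL50 and its partner ZNF189, 205 bases away, were at −1.07 and −1.12. MRPL15 and LYPLA1, 236 bases apart, were at −0.59 and −0.64. MRPL35 and IMMT, which codes for a protein that shapes the cristae of mitochondria and whose start overlaps that of MRPL35, were unalike, with IMMT at −2.11 and called and MRPL35 at −0.38 and not called. Because strand handling in the counting is not given, reads of overlapping partners cannot be told apart here.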
